A study of Mus musculus with 6 samples.

Results

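Skin around full-thickness incisional wounds of mice was compared on day 2 after wounding between a topical vemurafenib library and a topical vehicle library, gene by gene. Of the 23940 genes in the table of gene levels, 13392 were used, those whose level averaged 1 FPKM or more over the 6 libraries of the series. FPKM count the fragments of a gene relative to its length and to the sequenced fragments of its library. Vemurafenib is an inhibitor of the kinase BRAF, and the question was which genes it moved in the first days of repair. The series holds 1 library for each of vemurafenib and vehicle on days 2, 6 and 14. All mice were C3H (females of the C3Hf/Kam line, aged 8 to 10 weeks according to the methods). The vemurafenib group received 2 mg of the drug, ground from clinical tablets and suspended in DMSO and PBS, at wounding and then every 2 days. The vehicle group received DMSO in PBS on the same schedule, although the sample label calls it untreated. An application fell on day 2 itself, and whether skin was taken before or after it is not given in the sources used here, nor is the number of mice behind a library. With 1 library per group no difference below has a replicate check, and no test was made: each value describes these libraries.

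On day 2 a skin wound is in its inflammatory phase. Neutrophils and monocytes enter from the blood, macrophages and mast cells that lived in the dermis before the injury are disturbed, and keratinocytes at the edge begin to move and divide. Fibroblasts that will lay down new collagen and vessels that will sprout follow later. In cells with normal BRAF, vemurafenib can raise rather than lower signalling through RAF, MEK and ERK, the kinase cascade by which growth factors switch on immediate early genes such as Fos and Egr1.

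The vemurafenib library summed to 816658 FPKM and the vehicle library to 931171 FPKM, so that ratios lie 0.19 (log2) higher when both are set to the same total. In the vemurafenib column 0.0056% of the values above 0 were written with over 6 significant digits, against 58.1% in the vehicle column, as a mean of several values would be, and the part of this in the ratios was not tested. The vemurafenib column also listed more genes at 0 (6088, against 5446 in the vehicle column). The number of reads behind a value cannot be had from FPKM, so depth is unknown and no interval is given. Both libraries held much muscle RNA: the 20 skeletal muscle markers summed to 31288 FPKM with vemurafenib and 30249 FPKM with vehicle, and their median log2 ratio was 0.11. B cell and plasma cell markers were near 0 in both, none of 8 passing the filter.

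With vemurafenib, 191 of 13392 genes (1.43%) lay 2-fold or more above vehicle and 437 (3.26%) 2-fold or more below it, by the log2 ratio after 0.1 FPKM was added to both values. These shares of all genes, 1.43% higher and 3.26% lower, are the background for every count of 2-fold members given below. The median log2 ratio of all genes was 0.00, with 6674 genes above 0 and 6566 below. The quartiles of the ratio were -0.26 and 0.22 and its 5th and 95th percentiles -0.82 and 0.61, so the lower tail was the longer. Small RNA and histone genes made up many of the extreme ratios. Among 280 of them 48.2% were at least 2-fold apart, against 3.76% of the other genes, and they held 31 of 36 genes at least 4-fold higher and 70 of 102 at least 4-fold lower. Without them 140 genes were higher and 353 lower. In 73 of the 437 lower genes the vemurafenib library was listed at 0, and in 30 of the 191 higher genes the vehicle library was. With FPKM set to the same total the split turned to 321 higher and 288 lower. In the 1080 genes that averaged 100 FPKM or more on day 2 the median ratio was -0.12, and 10 of them were 2-fold higher and 44 lower.

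**Figure D1:**
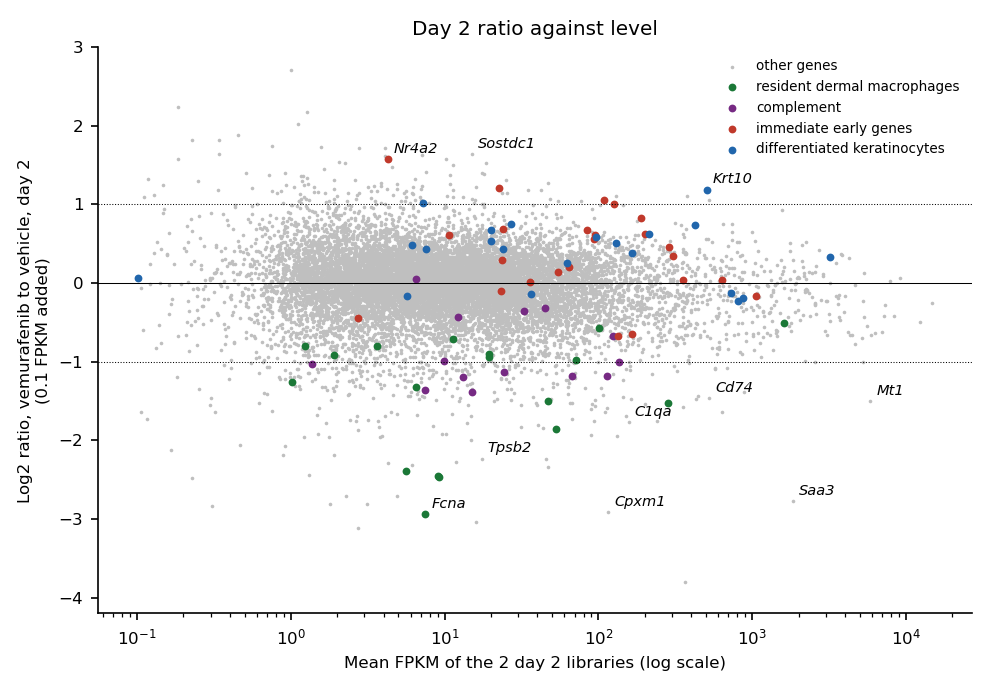
Log2 ratio of vemurafenib to vehicle on day 2 (vertical axis) against the mean FPKM of both libraries (horizontal log axis) for 12975 genes, with the members of 4 gene lists in colour and dotted lines at 2-fold, leaving out the 280 small RNA and histone genes, 132 genes under 0.1 FPKM and 5 genes outside the vertical range. Resident macrophage and complement genes lie mostly below 0 and immediate early genes mostly above it.

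The ratio also moved with the base composition of transcripts. For 12093 genes (90.3%) the GC content of the longest protein-coding transcript was known. Their median ratio was 0.07 in the decile of lowest GC content and -0.28 in the decile of highest, and the number of genes at least 2-fold lower was 12 in the first decile and 95 in the last, while the number at least 2-fold higher was 13 and 7. Across these genes, which share 2 libraries and are not independent, Spearman's rho of GC content and ratio was -0.31. It was -0.22 on day 6 and 0.56 on day 14. Once the median ratio was set to 0 within 20 bins of GC content, an alternative chosen after seeing the data, 162 of these genes were 2-fold higher and 249 lower, where 129 and 332 of the same genes had been before. Where this took the median of a list across 0.3 in size, the value is given with the list. The part of base composition in single ratios was not tested.

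**Figure D2:**
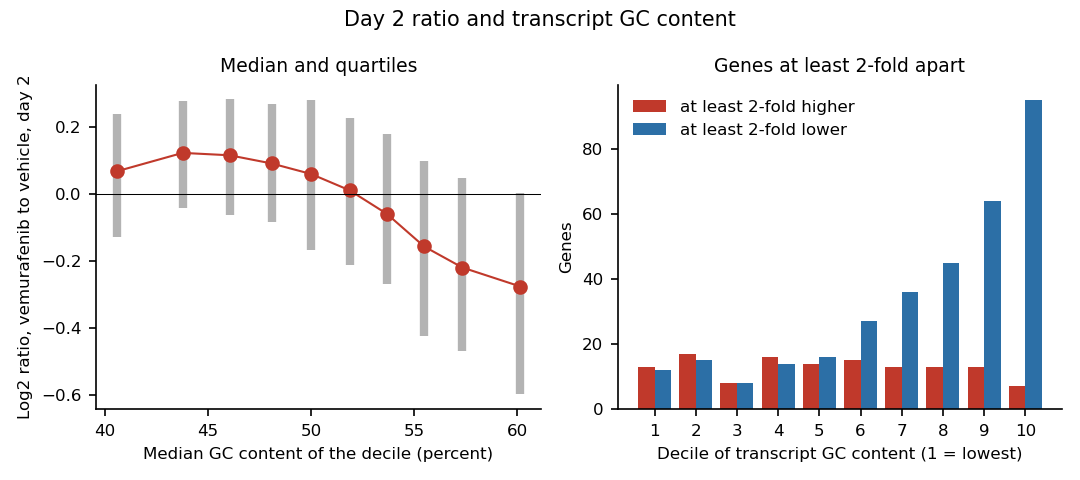
Left, median (points) and quartiles (bars) of the day 2 log2 ratio of vemurafenib to vehicle in 10 groups of genes of rising transcript GC content, and right, the number of genes at least 2-fold higher or lower with vemurafenib in each group. The median is 0.07 in the first group and -0.28 in the last, where 7 genes are higher and 95 lower.

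The genes with the largest ratios were taken from the 8671 that averaged 5 FPKM or more on day 2 and are not small RNA or histone genes, of which 53 were 2-fold higher and 212 lower. The acute-phase gene Saa3, of the serum amyloid family and made by macrophages and other cells at sites of injury, was among the largest falls both by ratio (-2.77) and in FPKM, at 471 FPKM with vemurafenib against 3211 FPKM with vehicle. It lies at chr7:53967368-53971046 of mm9, the build of the files. Cpxm1, a secreted carboxypeptidase-like protein, was at 26.9 FPKM with vemurafenib against 203 FPKM with vehicle (log2 ratio -2.92), and Rtn4rl2, a Nogo receptor relative, at 3.3997 FPKM with vemurafenib against 28.7 FPKM with vehicle (-3.04). Igfbp6, which binds insulin-like growth factors, was at 15.8 FPKM with vemurafenib against 74.8 FPKM with vehicle, and Fcgrt, the receptor that protects IgG and albumin from breakdown, at 54.4 FPKM with vemurafenib against 209 FPKM with vehicle. Both Rtn4rl2 and Igfbp6 are rich in GC, and their ratios were -2.73 and -1.93 after the median was set to 0 within GC bins. Hba-a2 (-7.21) and Atp6v0c-ps2 (-3.80) stood lowest of all, but the one is a near-identical copy of Hba-a1 and the other a pseudogene, so that their reads can be assigned to another copy and their values are uncertain.

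The 20 highest ratios were smaller in size than the 20 lowest, from 1.18 to 1.64. Sostdc1, a secreted BMP and Wnt antagonist of the hair follicle at chr12:37040756-37045039, was at 22.7 FPKM with vemurafenib and 7.23 FPKM with vehicle. Several others are expressed in epidermis: Alox12e, an epidermal lipoxygenase, at 27.6 FPKM with vemurafenib against 9.51 with vehicle, Pou2f3, a transcription factor of keratinocytes, at 25.4 FPKM with vemurafenib against 9.61 with vehicle, and Mt4, the metallothionein of stratified epithelia, at 26.2 FPKM with vemurafenib against 9.91 with vehicle. Fgfr2, whose epithelial form is the receptor for keratinocyte growth factor, was at 15.6 FPKM with vemurafenib and 5.97 FPKM with vehicle (log2 ratio 1.37). Its ligand gene Fgf7 lay the other way, at 1.36 FPKM with vemurafenib and 3.02 with vehicle (-1.09). Ackr4, a scavenging receptor for CC chemokines, was at 10.04 FPKM with vemurafenib against 4.203 with vehicle, and Irx4, a homeobox gene, at 10.998 FPKM with vemurafenib against 4.07 with vehicle.

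By FPKM rather than by ratio, the largest falls were in very abundant short transcripts. The entry Mir6236, listed as a microRNA gene, headed them at 6246 FPKM with vemurafenib and 17292 FPKM with vehicle. On day 6 this entry was at 4230 FPKM with vemurafenib and 123794 FPKM with vehicle, so its values are uncertain. It was followed by Mt1 (3059 FPKM with vemurafenib, 8663 with vehicle) and the ribosomal protein gene Rplp1 (10234 FPKM with vemurafenib, 14400.0 with vehicle). Mt2 was at 3478 FPKM with vemurafenib against 7004 FPKM with vehicle. Mt1 and Mt2, neighbours at chr8:96702989-96704225 and chr8:96696518-96697467, encode metallothioneins, which bind zinc and are switched on by metals, glucocorticoids and inflammation. The largest gain was in Myl1, a light chain of fast muscle myosin (2058 FPKM with vemurafenib, 1078 FPKM with vehicle). Next were the calprotectin genes S100a9 (4248 FPKM with vemurafenib, 3294 with vehicle) and S100a8 (4737 FPKM with vemurafenib, 3813 with vehicle). With them came Tpt1 (4312 FPKM with vemurafenib, 3374 with vehicle) and the translation gene Eef1a1 (2642 FPKM with vemurafenib, 1847 with vehicle). None of these gains reached 2-fold.

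**Figure D3:**
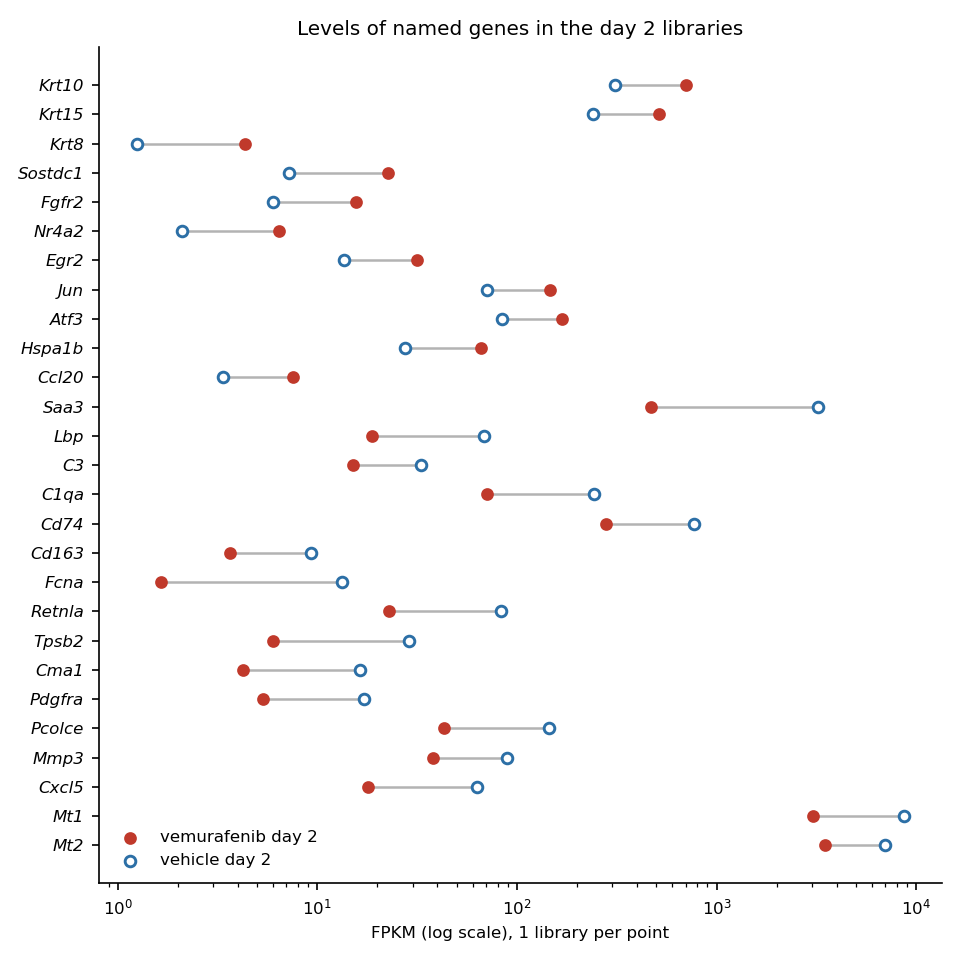
FPKM on a log axis of 27 genes named in the text in the vemurafenib library (filled red) and the vehicle library (open blue) of day 2, 1 library per point. The upper 11 genes are higher with vemurafenib and the lower 16 lower, with Saa3 at 471 FPKM with vemurafenib against 3211 with vehicle.

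Markers of the macrophages that reside in the dermis were lower with vemurafenib throughout. Of 19 listed genes 18 passed the filter, all 18 below 0, with 9 at least 2-fold lower and a median log2 ratio of -1.12, where 3.26% of all genes were at least 2-fold lower. Fcna, the macrophage ficolin that can start the lectin pathway of complement, was at 1.65 FPKM with vemurafenib and 13.3 FPKM with vehicle. Retnla, a secreted product of alternatively activated macrophages, was at 22.9 FPKM with vemurafenib against 83.1 FPKM with vehicle, and Cbr2, a carbonyl reductase, at 147 FPKM with vemurafenib against 421 FPKM with vehicle. Clec10a, a galactose-binding lectin, was at 24.4 FPKM with vemurafenib against 69.2 FPKM with vehicle. The least lowered member was Ccl8, a monocyte-attracting chemokine, at 1322 FPKM with vemurafenib against 1886 FPKM with vehicle. Between these lay Cd163, the scavenger receptor for haemoglobin (-1.32), Folr2, a folate receptor (-0.98), Mrc1, the mannose receptor (-0.90), and Timd4, a receptor for dying cells (-0.91). Cd209b, Cd209d, Cd209f and Cd209g encode similar lectins that may share reads; their ratios ran from -2.47 to -1.25. The list as a whole summed to 1699 FPKM with vemurafenib and 2815 FPKM with vehicle. In a bulk sample, fewer cells of a type cannot be told apart from less RNA per cell.

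General markers of macrophages and monocytes were lower by less, and unevenly. Of 22 genes 20 were below 0, 5 at least 2-fold, with a median of -0.47 (-0.29 with FPKM set to the same total). The 3 genes of the complement starter C1q stood lowest: C1qa at 71.02 FPKM with vemurafenib against 243 FPKM with vehicle, C1qb at 71.3 FPKM with vemurafenib against 231 with vehicle and C1qc at 109.7 FPKM with vemurafenib against 369 with vehicle. Csf1r, the receptor that keeps macrophages alive, was at 22.2 FPKM with vemurafenib against 39.1 FPKM with vehicle, and Aif1, a calcium-binding protein of macrophages, at 104 FPKM with vemurafenib against 216 FPKM with vehicle. At the other end Lyz2, lysozyme, had a ratio of -0.19, Itgam, an integrin shared with neutrophils, one of -0.14, and Cd14, the co-receptor for lipopolysaccharide, was at 910.1 FPKM with vemurafenib and 692 FPKM with vehicle.

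Genes of inflammatory monocytes split. Of 19, 11 were below and 8 above 0, at a median of -0.13. Saa3 (-2.77) and Ifi205 (-1.48) were at least 2-fold lower, and Ly6c2, the surface marker of inflammatory monocytes, was at 434 FPKM with vemurafenib and 778 FPKM with vehicle. Ccr2, the receptor that brings monocytes out of the marrow, was at 22.6 FPKM with vemurafenib against 39.1 FPKM with vehicle. The cytokine genes Il1b (691 FPKM with vemurafenib, 566 with vehicle) and Tnf (55.9 FPKM with vemurafenib, 44.8 with vehicle) and the lectin gene Clec4d (211 FPKM with vemurafenib, 168 with vehicle) lay slightly above 0.

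Neutrophil markers lay on the other side. Of 23 listed genes 21 passed the filter, 18 above 0 and 3 below, with a median of 0.31 (0.24 after setting the median to 0 within GC bins) and 1 of them, Ngp, at least 2-fold higher, against 1.43% of all genes. Ngp, a granule protein made early in neutrophil development, was at 6.87 FPKM with vemurafenib and 2.95 FPKM with vehicle. Retnlg, a resistin-like product of neutrophils, was at 614 FPKM with vemurafenib against 417 FPKM with vehicle, and G0s2, an inhibitor of lipid breakdown that is abundant in neutrophils, at 219 FPKM with vemurafenib against 143 FPKM with vehicle. Lcn2, the iron-scavenging lipocalin that keratinocytes make as well, was at 164 FPKM with vemurafenib against 207 FPKM with vehicle and so ran the other way. BC100530, the lowest member (972 FPKM with vemurafenib, 1516 with vehicle, log2 ratio -0.64), and Padi4 (-0.31) also lay below 0. The list summed to 13497 FPKM with vemurafenib and 11451 FPKM with vehicle. On day 6, 14 members were above 0 and 7 below, with Stfa1 (-1.62), Stfa3 (-1.28) and BC100530 (-1.55) among the lowest. The part of other cells, such as keratinocytes, in this sum was not tested.

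Mast cell proteases were among the lowest genes of all. Of 17 listed genes 10 passed the filter, 8 below 0 and 5 at least 2-fold lower (50%, against 3.26% of all genes), with a median of -1.10. The tryptase genes Tpsb2 (6.02 FPKM with vemurafenib, 28.7 FPKM with vehicle) and Tpsab1 (5.91 FPKM with vemurafenib, 23.9 with vehicle) are similar and may share reads. The chymase genes Cma1 (4.22 FPKM with vemurafenib, 16.3 with vehicle) and Mcpt4 (3.94 FPKM with vemurafenib, 15.2 with vehicle) and the carboxypeptidase gene Cpa3 (1.02 FPKM with vemurafenib, 2.71 with vehicle) were lower as well. All 5 encode contents of the granules. Kit, the receptor that mast cells need, was at 0.448 FPKM with vemurafenib against 0.5701 FPKM with vehicle (-0.29). Hdc, the enzyme that makes histamine in mast cells and in neutrophils, was at 157 FPKM with vemurafenib against 125 FPKM with vehicle (0.33), and Il1rl1, the receptor for interleukin 33, at 18.5 FPKM with vemurafenib against 16.9 with vehicle (0.13). The median moved to -0.70 with a pseudocount of 1 FPKM and to -1.63 when a mean of 5 FPKM was required.

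Of 22 T and NK cell genes 14 passed the filter, 11 below 0 and 2 at least 2-fold lower (14.3%, against 3.26% of all genes), at a median of -0.58. Zap70, a kinase of T cell receptor signalling, was at 1.57 FPKM with vemurafenib and 4.06 FPKM with vehicle, and Foxp3, the factor of regulatory T cells, at 3.69 FPKM with vemurafenib against 6.74 FPKM with vehicle, while the T cell receptor subunit Cd3g was at 3.703 FPKM with vemurafenib against 2.58 with vehicle. Dendritic and Langerhans cell markers were divided, with 7 of 12 below 0 and a median of -0.36, which came to -0.24 within GC bins and to -0.06 when a mean of 5 FPKM was required. Batf3, a factor of cross-presenting dendritic cells, was at 4.59 FPKM with vemurafenib against 13.1 FPKM with vehicle, and Cd207, the langerin of Langerhans cells, at 2.84 FPKM with vemurafenib against 1.63 FPKM with vehicle.

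All 8 genes of antigen presentation by MHC class II that passed the filter, of 11 listed, were lower with vemurafenib, 4 of them at least 2-fold, at a median of -0.99. Cd74, the invariant chain that guides these molecules through the cell, was at 279 FPKM with vemurafenib and 770.4 FPKM with vehicle. H2-Ab1, a beta chain, was at 102 FPKM with vemurafenib against 297 FPKM with vehicle, H2-Aa, its alpha partner, at 125 FPKM with vemurafenib against 246 with vehicle, and H2-Eb1 at 52.3 FPKM with vemurafenib against 73.9 with vehicle. H2-DMa and H2-DMb1, whose products load peptides, had ratios of -0.97 and -1.10.

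Complement genes were lower too. Of 18 listed genes 14 passed the filter, 13 of them below 0 and 8 at least 2-fold lower (57.1%, against 3.26% of all genes), with a median of -1.01. C3, the centre of the cascade, was at 15.1 FPKM with vemurafenib and 33.2 FPKM with vehicle. Cfb, a protease of the alternative pathway, was at 69.2 FPKM with vemurafenib against 157 FPKM with vehicle, and C2 (-1.39), C4b (-1.36) and C1ra (-1.19) of the classical pathway were lower in like measure. Serping1, the C1 inhibitor, was at 41.01 FPKM with vemurafenib against 93.3 FPKM with vehicle. The receptors for the cleaved peptides were nearer to 0, C3ar1 at -0.35 and C5ar1 at -0.31, and Cd55, a membrane inhibitor, was at 0.05.

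Among acute-phase proteins 13 of 20 listed genes passed the filter, 10 below 0 and 6 at least 2-fold lower (46.2%, against 3.26% of all genes). Their median was -0.91, or -1.44 when a mean of 5 FPKM was required. Lbp, which hands lipopolysaccharide to Cd14, was at 18.9 FPKM with vemurafenib and 68.1 FPKM with vehicle. Serpina3n, an inhibitor of neutrophil and mast cell proteases, was at 30.95 FPKM with vemurafenib against 103 FPKM with vehicle, and Ptx3, the long pentraxin, at 20.1 FPKM with vemurafenib against 58.1 FPKM with vehicle. Lrg1 was at 238 FPKM with vemurafenib against 646 FPKM with vehicle and haptoglobin, Hp, at 409 FPKM with vemurafenib against 767 with vehicle. The orosomucoid gene Orm1 lay the other way at 23.6 FPKM with vemurafenib against 18.03 with vehicle. The fibrinogen genes Fga, Fgb and Fgg, which the liver makes, were listed at 0 in both libraries.

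Chemokine and cytokine genes showed no common direction. Of 11 CXC chemokine genes past the filter 7 were below 0, with a median of -0.13, and of 13 CC chemokine genes 8 were, with a median of -0.04. Cxcl5, which attracts neutrophils, was at 18.02 FPKM with vemurafenib and 63.3 FPKM with vehicle, whereas Cxcl1, Cxcl2 and Cxcl3, which bind the same receptor, had ratios of -0.01, 0.11 and -0.13. Cxcl12 and Cxcl14, made by stroma, were at 58.7 FPKM with vemurafenib against 106 with vehicle and at 36.6 FPKM with vemurafenib against 78.9 with vehicle. Ccl2, the main monocyte attractant, was at 363 FPKM with vemurafenib against 375 FPKM with vehicle. The epithelial chemokine genes Ccl20 (7.54 FPKM with vemurafenib, 3.35 FPKM with vehicle) and Ccl27a (137 FPKM with vemurafenib, 68.8 with vehicle) were higher. Of 19 interleukin and cytokine genes 9 were above and 10 below 0. Il10, which dampens inflammation, was at 2.48 FPKM with vemurafenib against 5.51 FPKM with vehicle (-1.12), and Il6 at 11.9 FPKM with vemurafenib against 20.7 FPKM with vehicle (-0.80). Tslp, an alarm cytokine of keratinocytes, was at 2.83 FPKM with vemurafenib against 1.65 FPKM with vehicle. NF-kB targets had a median of 0.05, with 11 of 18 above 0, and interferon-stimulated genes one of -0.01, with 14 of 28 above 0 and no member 2-fold apart.

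**Figure D4:**
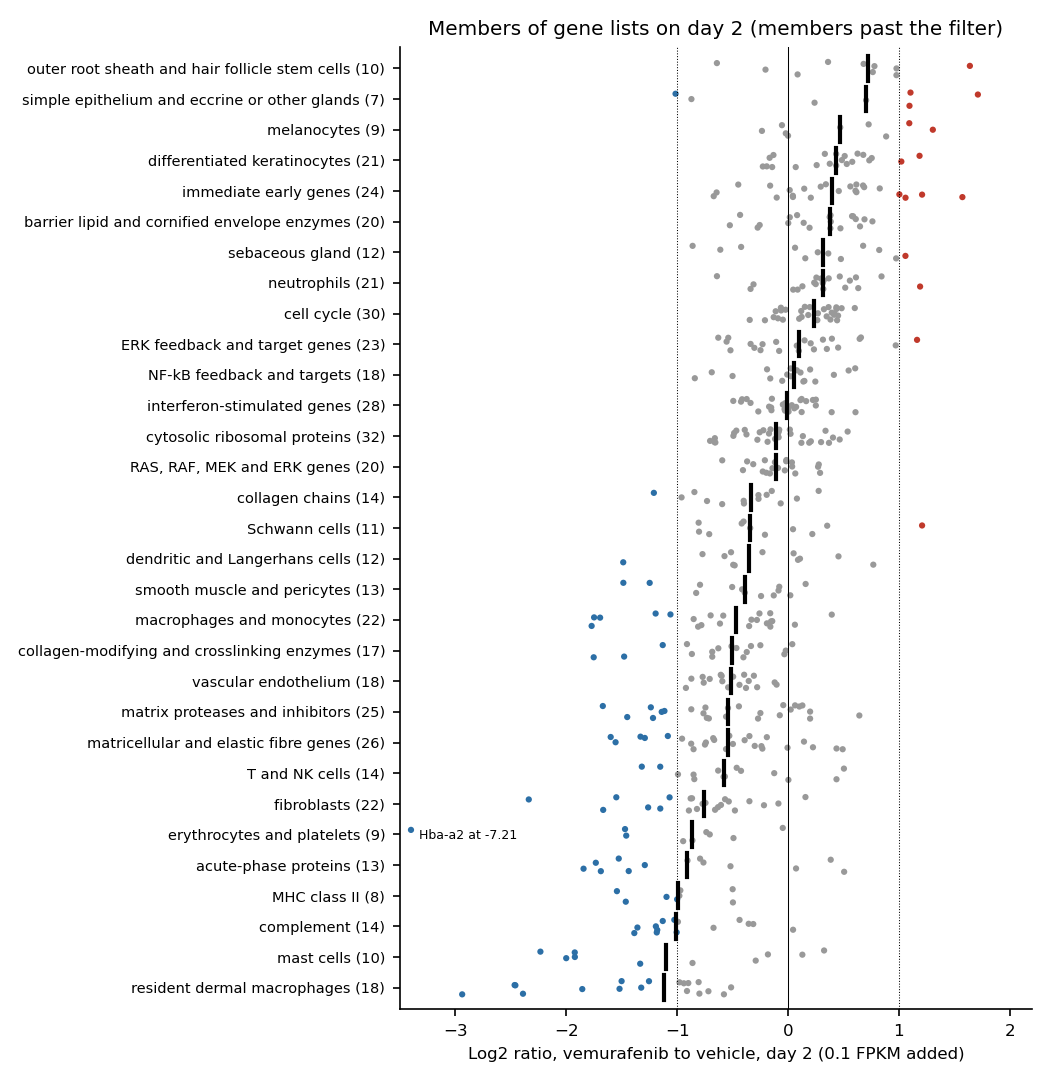
Day 2 log2 ratio of vemurafenib to vehicle (horizontal axis) of every member past the filter (number in brackets) of 31 gene lists, with bars at list medians, red and blue points at least 2-fold above or below 0, and dotted lines at 2-fold. Resident dermal macrophage, mast cell, complement and MHC class II genes lie lowest, at medians from -1.12 to -0.99, and outer root sheath genes highest at 0.72.

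Fibroblast markers were lower with vemurafenib in 21 of 22 cases, 6 of them at least 2-fold (27.3%, against 3.26% of all genes), with a median of -0.76. Pi16, which marks a fibroblast type of the adventitia, was at 15.5 FPKM with vemurafenib and 78.6 FPKM with vehicle. Pdgfra, the platelet-derived growth factor receptor of dermal fibroblasts, was at 5.32 FPKM with vemurafenib against 17.1 FPKM with vehicle, and Thy1 at 76.9 FPKM with vemurafenib against 171 with vehicle. The fibrillar collagen genes Col1a1 (102 FPKM with vemurafenib, 173 with vehicle), Col1a2 (118 FPKM with vemurafenib, 175 with vehicle) and Col3a1 (72.8 FPKM with vemurafenib, 135 with vehicle) were lower by less than 2-fold. Only Vim, vimentin, which leukocytes express as well, lay above 0 in this list, at 657 FPKM with vemurafenib against 589 with vehicle.

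Other genes of the extracellular matrix lay mostly on the same side. Of 17 enzymes and chaperones that process or crosslink collagen 16 were below 0, 3 at least 2-fold (17.6%, against 3.26% of all genes), at a median of -0.51. Pcolce, which speeds the removal of the collagen C propeptide, was at 43.03 FPKM with vemurafenib and 145 FPKM with vehicle, its partner protease Bmp1 at 19.8 FPKM with vemurafenib against 43.4 with vehicle, and the crosslinking oxidase Loxl1 at 25.8 FPKM with vemurafenib against 72.0003 with vehicle. Matricellular and elastic fibre genes were below 0 in 22 of 26 cases, 5 at least 2-fold (19.2%), at a median of -0.54. Efemp2, which builds elastic fibres, was at 44.3 FPKM with vemurafenib against 134 FPKM with vehicle and Tnxb, tenascin X, at 8.001 FPKM with vemurafenib against 19.7 FPKM with vehicle. Postn, periostin, and Spp1, osteopontin, lay the other way, at 75.3 FPKM with vemurafenib against 53.5 with vehicle and at 409 FPKM with vemurafenib against 302 with vehicle. The other collagen chains had a median of -0.33 with 12 of 14 below 0, led by Col4a2 of the basement membrane (16.7 FPKM with vemurafenib, 38.7 with vehicle), and this median was -0.15 with the same total and -0.23 within GC bins.

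Matrix proteases and their inhibitors were below 0 in 18 of 25 cases, 6 at least 2-fold (24%, against 3.26% of all genes), at a median of -0.54. Mmp3, stromelysin, was at 37.9 FPKM with vemurafenib and 89.5 FPKM with vehicle, Mmp2, a gelatinase of fibroblasts, at 33.3 FPKM with vemurafenib against 73.4 with vehicle, and Timp1, which inhibits both, at 267 FPKM with vemurafenib against 452 with vehicle. Mmp12, the macrophage elastase, stood highest, at 2.74 FPKM with vemurafenib against 1.72 FPKM with vehicle (0.64), and Mmp9 (0.20), Mmp13 (0.06), Mmp10 (0.10) and Adam8 (0.20) lay slightly above 0.

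Every one of 18 markers of vascular endothelium was lower with vemurafenib, none by 2-fold, with a median of -0.52. Plvap, which spans the openings of capillary cells, was at 122 FPKM with vemurafenib and 208 FPKM with vehicle, and Pecam1, the adhesion molecule used to stain vessels, at 27.6 FPKM with vemurafenib against 41.6 FPKM with vehicle. Cdh5, the cadherin of endothelial junctions, was at 13.8 FPKM with vemurafenib against 19.4 FPKM with vehicle and Kdr, the main receptor for vascular endothelial growth factor, at 5.54 FPKM with vemurafenib against 7.23 FPKM with vehicle. Smooth muscle and pericyte markers had a median of -0.39 with 11 of 13 below 0, and of -0.20 after setting the median to 0 within GC bins. Rgs5, a marker of pericytes, was at 0.911 FPKM with vemurafenib against 2.73 with vehicle. Of the Schwann cell markers 7 of 11 were below 0, at a median of -0.34 (-0.296 within GC bins, -0.15 with the same total). All 9 genes of red cells and platelets past the filter were below 0, at a median of -0.86 (-0.62 within GC bins). Among these 9, Hba-a2 (0.025 FPKM with vemurafenib, 18.4 with vehicle) passed the filter only through the vehicle library of day 2. Its place below 0 therefore followed from the filter, and its value is uncertain, as given above. The globin gene Hbb-b1 was at 785 FPKM with vemurafenib against 1513 FPKM with vehicle. Alas2, of haem synthesis in red cells, was at 6.67 FPKM with vemurafenib against 18.5 with vehicle, and the platelet chemokine gene Ppbp at 26.04 FPKM with vemurafenib against 26.9 with vehicle. The list of red cell and platelet genes summed to 2013 FPKM with vemurafenib and 3496 FPKM with vehicle, and whether blood in the samples bears on other lists was not tested.

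Genes of differentiated epidermis lay on the other side of 0. Of 21 genes of differentiated keratinocytes past the filter 16 were above 0, 2 at least 2-fold (9.52%, against 1.43% of all genes), with a median of 0.43. Krt10, the keratin of the first differentiated layer at chr11:99246568-99250678, was at 702 FPKM with vemurafenib and 308 FPKM with vehicle, its partner Krt1 at 529.6 FPKM with vemurafenib against 319 with vehicle, and Flg2, a filaggrin relative, at 9.72 FPKM with vemurafenib against 4.74 with vehicle. Dsg1a, a desmosomal cadherin, was at 33.96 FPKM with vemurafenib against 20.1 FPKM with vehicle, and Casp14, the protease of cornification, at 24.8 FPKM with vemurafenib against 15.5 with vehicle. Lor, loricrin of the outermost layers, was at 691 FPKM with vemurafenib against 756 FPKM with vehicle and thus did not share the direction. Enzymes of barrier lipids and of the cornified envelope were above 0 in 16 of 20 cases at a median of 0.38 (0.27 within GC bins, 0.24 by the mean of the members), none by 2-fold, with the ceramidase gene Acer1 highest at 33.7 FPKM with vemurafenib against 19.8 with vehicle.

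Basal keratinocyte genes had a median of 0.09 (0.25 within GC bins), and the major keratins hardly differed: Krt14 was at 7896 FPKM with vemurafenib and 7741 FPKM with vehicle, and Krt5 at 4608 FPKM with vemurafenib against 4675 FPKM with vehicle. Within the list Krt15, a basal keratin that is high in the hair follicle bulge and low in activated epidermis, was at 517 FPKM with vemurafenib against 239.5 FPKM with vehicle, and Col17a1, a hemidesmosomal collagen, at 132 FPKM with vemurafenib against 84.3 with vehicle. The keratins that a wound edge switches on were not higher. Krt6a was at 1255 FPKM with vemurafenib against 1527 FPKM with vehicle, its partner Krt16 at 1709 FPKM with vemurafenib against 2373 with vehicle, and Krt17 at 895 FPKM with vemurafenib against 1444 with vehicle. Among wound-edge genes 8 of 14 were below 0, at a median of -0.22; the antimicrobial genes Defb3 (3.78 FPKM with vemurafenib, 8.63 with vehicle) and Slpi (265 FPKM with vemurafenib, 506 with vehicle) were lowest and the envelope precursors Sprr1a and Sprr1b lay at 0.19 and 0.19.

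Appendage genes were mostly above 0. Of 10 genes of the outer root sheath and of hair follicle stem cells past the filter, of 11 listed, 8 were above 0, with a median of 0.72 and 1 at least 2-fold higher, Sostdc1. Lgr5, a receptor that marks follicle stem cells, was at 1.496 FPKM with vemurafenib and 0.71003 FPKM with vehicle, Lhx2 at 8.28 FPKM with vemurafenib against 4.16 with vehicle, Sox9 at 12.3 FPKM with vemurafenib against 7.65 with vehicle, and Krt79, of the follicle's opening, at 393 FPKM with vemurafenib against 232 with vehicle. Cd34, which endothelial cells and fibroblasts share with the bulge, was at 37.6 FPKM with vemurafenib against 58.7 FPKM with vehicle. Sebaceous gland genes had a median of 0.32 with 9 of 12 above 0 (0.24 within GC bins). Of 7 genes of simple and glandular epithelium 5 were above 0, 2 were below it and 3 were at least 2-fold higher (42.9%, against 1.43% of all genes). Krt19 was the 1 member at least 2-fold lower (14.3%, against 3.26% of all genes). The members above 0 included Epcam (81.4 FPKM with vemurafenib, 49.9 with vehicle) and the keratin gene Krt77 (177 FPKM with vemurafenib, 82.4 with vehicle). The simple epithelial pair Krt8 (4.32 FPKM with vemurafenib, 1.25 with vehicle) and Krt18 (17.9 FPKM with vemurafenib, 8.32 with vehicle) lay above 0 too. Krt19, a keratin of glands and of the follicle bulge, was at 0.724 FPKM with vemurafenib against 1.57 with vehicle. Krt77 had ratios of 1.10, -0.99 and -1.20 on days 2, 6 and 14. These lay near the ratios of Krt10 (1.19, -1.28 and -1.30), so the place of Krt77 in this list is uncertain. The median of the 7 genes, 0.70, became 0.24 with no filter on the mean. The 20 hair shaft genes were at or near 0 in both libraries and summed to 10.2 FPKM with vemurafenib and 7.86 FPKM with vehicle, at a median of 0.11 (0.32 within GC bins). The 9 melanocyte genes summed to 9.47 FPKM with vemurafenib and 6.495 FPKM with vehicle, and their median of 0.47 was -0.02 when the filter was applied to the day 2 libraries. Dct, of pigment synthesis, was at 3.77 FPKM with vemurafenib against 1.46 with vehicle.

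Adipocyte genes had a median of 0.25, with 10 of 16 above 0. Pck1, an enzyme of glycerol and glucose synthesis, was at 7.67 FPKM with vemurafenib and 3.54 FPKM with vehicle. Adipoq, adiponectin, was at 69.1 FPKM with vemurafenib and 55.4 FPKM with vehicle, while Plin4 and Lipe, which coat and break down fat droplets, were at 14.8 FPKM with vemurafenib against 24.02 with vehicle and at 32.1 FPKM with vemurafenib against 50.9 with vehicle. Genes of cholesterol and fatty acid synthesis were above 0 in 19 of 24 cases, at a median of 0.29. Elovl6, which lengthens fatty acids, was at 49.6 FPKM with vemurafenib against 25.01 FPKM with vehicle and Thrsp, a regulator of lipid synthesis, at 5.46 FPKM with vemurafenib against 2.21 with vehicle.

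The genes of the drug's own pathway differed little in level. Of 20 genes of the RAS, RAF, MEK and ERK cascade 14 were below 0, none 2-fold apart, with a median of -0.10. Braf was at 1.75 FPKM with vemurafenib and 2.04 FPKM with vehicle. The ERK gene Mapk3 was at 126 FPKM with vemurafenib against 190.003 FPKM with vehicle. Genes that ERK switches on, including its own feedback inhibitors, had a median of 0.10, with 13 of 23 above 0 and 1 at least 2-fold higher. That gene, Fosl1, a partner of Jun in the factor AP-1, was at 5.05 FPKM with vemurafenib against 2.2002 FPKM with vehicle. The feedback inhibitor gene Spry1 was at 13.5 FPKM with vemurafenib against 6.83 FPKM with vehicle, but Spry4 (-0.63) and Spry2 (-0.30) lay below 0, as did Etv4 (-0.52) and Etv5 (-0.54), and the ERK phosphatase gene Dusp6 was at 53.8 FPKM with vemurafenib against 56.9 FPKM with vehicle.

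Immediate early genes were higher as a group. Of 26 listed genes 24 passed the filter, 19 above 0 and 4 at least 2-fold higher, with a median of 0.40, where 1.43% of all genes were at least 2-fold higher. Nr4a2, a nuclear receptor, was at 6.43 FPKM with vemurafenib and 2.096 FPKM with vehicle. Egr2, a zinc finger factor at chr10:66998223-67004936, was at 31.6 FPKM with vemurafenib against 13.6 FPKM with vehicle, Jun at 147 FPKM with vemurafenib against 70.6 FPKM with vehicle and the stress factor gene Atf3 at 169 FPKM with vemurafenib against 84.2 FPKM with vehicle. Fos was at 331 FPKM with vemurafenib against 241 FPKM with vehicle and Egr1 at 243 FPKM with vemurafenib against 158 FPKM with vehicle. Cyr61 (104 FPKM with vemurafenib, 165 with vehicle), a matricellular protein, Klf2 (129 FPKM with vemurafenib, 202 with vehicle), a factor of endothelial cells, and Nr4a3 (2.28 FPKM with vemurafenib, 3.15 with vehicle) lay lowest.

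Many immediate early genes carry a CArG box, the site of serum response factor, or a cyclic AMP response element (CRE, TGACGTCA) before their start. In the 250 bases before the RefSeq starts (build GRCm38.p6), 17 of the 24 genes had an entry, and a CArG box stood in 3 of them and a CRE in 2, against 1.49% and 2.88% of the 9810 genes past the filter with an entry. Both motifs read the same on both strands and were searched without mismatches. The stretches of 4 of these genes are shown, 25 bases to either side of the motif, which is in capitals, to set the sequence beside the level. The CArG genes Egr2, Zfp36 and Srf had ratios of 1.21, 0.04 and -0.10, and the CRE genes Btg2 and Dusp1 of 0.61 and 0.34.
Egr2 CArG box (chr10:67537469-67537528, plus strand): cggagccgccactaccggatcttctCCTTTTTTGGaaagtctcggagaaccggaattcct
Zfp36 CArG box (chr7:28379252-28379311, minus strand): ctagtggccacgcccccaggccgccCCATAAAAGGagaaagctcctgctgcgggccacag
Btg2 CRE (chr1:134079289-134079346, minus strand): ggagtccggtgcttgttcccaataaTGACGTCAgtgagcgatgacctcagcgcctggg
Dusp1 CRE (chr17:26508583-26508640, minus strand): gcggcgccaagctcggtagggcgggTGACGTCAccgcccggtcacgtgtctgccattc

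Ligands and receptors upstream of the cascade varied among themselves. Of 10 genes of the EGF receptor family and its ligands 7 were above 0, none 2-fold apart, at a median of 0.13. The ligand gene Hbegf was at 50.9 FPKM with vemurafenib and 32.8 FPKM with vehicle, Areg at 50.3 FPKM with vemurafenib against 37.4 with vehicle and Btc at 1.82 FPKM with vemurafenib against 0.923 with vehicle, and Egfr itself at 5.53 FPKM with vemurafenib against 6.46 with vehicle. Other wound growth factors and receptors had a median of 0.04, with 12 of 23 above 0. Tgfb1 was at 46.2 FPKM with vemurafenib against 77.97 FPKM with vehicle, and its receptors Tgfbr1 and Tgfbr2 had ratios of -0.59 and -0.51, while Vegfa was at 24.4 FPKM with vemurafenib against 19.6 FPKM with vehicle. Wnt, BMP and hedgehog regulators had a median of 0.23 with 19 of 30 above 0. Wnt10b, a ligand of hair follicle growth, was at 0.767 FPKM with vemurafenib and 0.135 FPKM with vehicle (1.88). Axin2, a target of Wnt signalling, was at 4.72 FPKM with vemurafenib against 3.12 FPKM with vehicle, Wnt10a at 45.8 FPKM with vemurafenib against 34.2 with vehicle, and Sfrp4, a secreted Wnt antagonist of stroma, at 7.13 FPKM with vemurafenib against 17.2 with vehicle.

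Heat shock genes had a median of 0.17, with 16 of 20 above 0 and 2 at least 2-fold higher (10%, against 1.43% of all genes). These were Hspa1b (66.4 FPKM with vemurafenib, 27.5 FPKM with vehicle), an inducible Hsp70 gene, and its co-chaperone gene Dnajb1 (73.7 FPKM with vemurafenib, 35.9 with vehicle). Hspa1a, the neighbouring Hsp70 gene, was at 24.2 FPKM with vemurafenib against 12.03 FPKM with vehicle. The small heat shock gene Hspb1, which keratinocytes express strongly, lay the other way at 1121 FPKM with vemurafenib against 1790.1 with vehicle. The core of the heat shock element, GAANNTTC, which also reads the same on both strands, stood within 250 bases before the start in 7 of 15 heat shock genes with a RefSeq entry, against 6.03% of the 9810 genes. Hspa1a and Hspa1b share 247 of these 250 bases, and reads of the 2 genes can be assigned to either, so their values are uncertain. The other genes with the element besides Hspb1 were Hspb6, Dnaja1, Hspd1 and Hspe1, with ratios of 0.19, 0.28, 0.35 and 0.19. The stretches of Hspa1a, Hspa1b and Hspb1 are shown with the elements in capitals, of which Hspb1 holds 2. They were chosen because these genes lie at both ends of the list.
Hspa1a heat shock element (chr17:34972228-34972285, minus strand): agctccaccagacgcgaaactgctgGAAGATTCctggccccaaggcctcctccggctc
Hspa1b heat shock element (chr17:34959310-34959367, minus strand): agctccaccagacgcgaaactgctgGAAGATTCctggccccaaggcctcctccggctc
Hspb1 heat shock element (chr5:135887777-135887854, plus strand): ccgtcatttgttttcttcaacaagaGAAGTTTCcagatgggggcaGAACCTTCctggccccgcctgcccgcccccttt

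Other stress genes were close to 0 as groups. The Nrf2 and xenobiotic list had a median of 0.10, with Mt1 (-1.50) and Mt2 (-1.01) lowest, Gsta2, a glutathione transferase, highest at 2.299 FPKM with vemurafenib and 1.08 FPKM with vehicle, Hmox1, haem oxygenase, at 291 FPKM with vemurafenib against 415 with vehicle, and Nqo1, a classic Nrf2 target, at 11.4 FPKM with vemurafenib against 8.68 FPKM with vehicle. The unfolded protein and integrated stress list had a median of -0.04, with Chac1, which degrades glutathione, lowest at 14.3 FPKM with vemurafenib against 36.6 with vehicle and Hspa5, the chaperone BiP, at 242 FPKM with vemurafenib against 236 with vehicle. Glycolysis and hypoxia genes had a median of -0.02. At least 2-fold lower were Adm, adrenomedullin (11.6 FPKM with vemurafenib, 32.4 with vehicle), and Car9, a carbonic anhydrase induced by hypoxia (2.11 FPKM with vemurafenib, 5.15 with vehicle), while Slc2a1, the glucose transporter, was at 161 FPKM with vemurafenib against 120.3 with vehicle. Coagulation and fibrinolysis genes had a median of -0.13, none 2-fold apart, with thrombomodulin, Thbd, at 27.8 FPKM with vemurafenib against 47.6 with vehicle. Among genes of prostaglandin and leukotriene synthesis (median -0.09) Ltc4s, which makes leukotriene C4 in mast cells and macrophages, was at 33.8 FPKM with vemurafenib against 97.3 FPKM with vehicle, and Ptgis, prostacyclin synthase, at 14.2 FPKM with vemurafenib against 29.6 FPKM with vehicle.

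Genes of cell division lay slightly above 0, 21 of 30, with a median of 0.23 and none 2-fold apart. Mki67, which encodes the proliferation antigen Ki67, was at 8.11 FPKM with vemurafenib and 6.04 FPKM with vehicle, Ccnb1, cyclin B1, at 19.6 FPKM with vemurafenib against 14.03 with vehicle and the mitotic kinase gene Aurkb at 13.7 FPKM with vemurafenib against 8.99 with vehicle. In contrast Cdc20, an activator of mitotic exit, was at 48.9 FPKM with vemurafenib against 52.8 with vehicle and E2f1 at 13.5 FPKM with vemurafenib against 17.2 with vehicle. Cytosolic ribosomal protein genes had a median of -0.10. Their ratios included those of Rplp2 (-0.70) and Rps9 (-0.66) below 0 and of Rpl4 (0.54) and Rpl22 (0.47) above it. Across 32 of these genes, which share 2 libraries and are not independent, Spearman's rho of GC content and ratio was -0.64. Rps9, at 52.04% GC, did not follow this relation, lying near the list's median GC content of 52.94%. The part of base composition in these ratios was not tested. Respiratory chain genes had a median of 0.11.

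Other genes named in the study were spread around 0 on day 2. Tnfaip3, a brake on NF-kB, was at 14.6 FPKM with vemurafenib and 9.56 FPKM with vehicle, and Egr1 had a ratio of 0.62. F7, coagulation factor VII, was at 5.64 FPKM with vemurafenib against 6.44 FPKM with vehicle, and Ptgs2, the inducible cyclooxygenase, at 21.7 FPKM with vemurafenib against 24.8 FPKM with vehicle. Cd68, a lysosomal protein of macrophages, was at 169 FPKM with vemurafenib against 275 FPKM with vehicle, a ratio of -0.70.

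On the later days, whose 4 libraries are not those of day 2, the 191 higher genes did not keep a common direction. They were 2-fold apart more often than all genes in both directions. Among them were 51 small RNA or histone genes, and in 30 the vehicle library of day 2 was listed at 0. On day 6, 24 of the 191 were 2-fold higher and 43 lower (12.6% and 22.5%, against 5.29% and 5.03% of all genes), and on day 14, 18 were higher and 44 lower (9.42% and 23.0%, against 3.64% and 7.66%). The 437 lower genes held 84 small RNA or histone genes, and in 73 of the 437 the vemurafenib library of day 2 was listed at 0. Of the 437 lower genes 50 were 2-fold higher and 43 lower on day 6 (11.4% and 9.84%). On day 14, 70 were higher and 45 lower (16.0% and 10.3%), again above the shares of all genes in both directions.

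Several gene lists lay on opposite sides of 0 on different days. Macrophage and monocyte markers had medians of -0.47 on day 2, 1.18 on day 6 and 0.33 on day 14, vascular endothelial markers of -0.52, 0.38 and 0.46, and complement genes of -1.01, 0.55 and -0.04. Differentiated keratinocyte genes ran the other way, at 0.43, -1.55 and -0.88. Resident dermal macrophage markers, the lowest on day 2 of the lists with 5 or more members, had medians of -0.04 on day 6 and -0.06 on day 14. Their members split on day 6, with 9 above and 9 below 0. Retnla was at -4.56 and Cd209b, Cd209d, Cd209f and Cd209g from -1.74 to -1.33, while Mrc1 was at 0.78. Immediate early genes, at 0.40 on day 2, had medians of 1.65 on day 6 and -0.04 on day 14. The difference between days was not tested, since each day has 1 library per group. The columns also differed in kind between days. Values with over 6 significant digits made up 0.0056% of those above 0 with vemurafenib and 58.1% with vehicle on day 2. These shares were 52.3% and 52.9% on day 6, and 50.3% and 0% on day 14. Medians were set to 0 within GC bins for day 2 only. The part of digits and GC content in the changes of side was not tested.

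**Figure D5:**
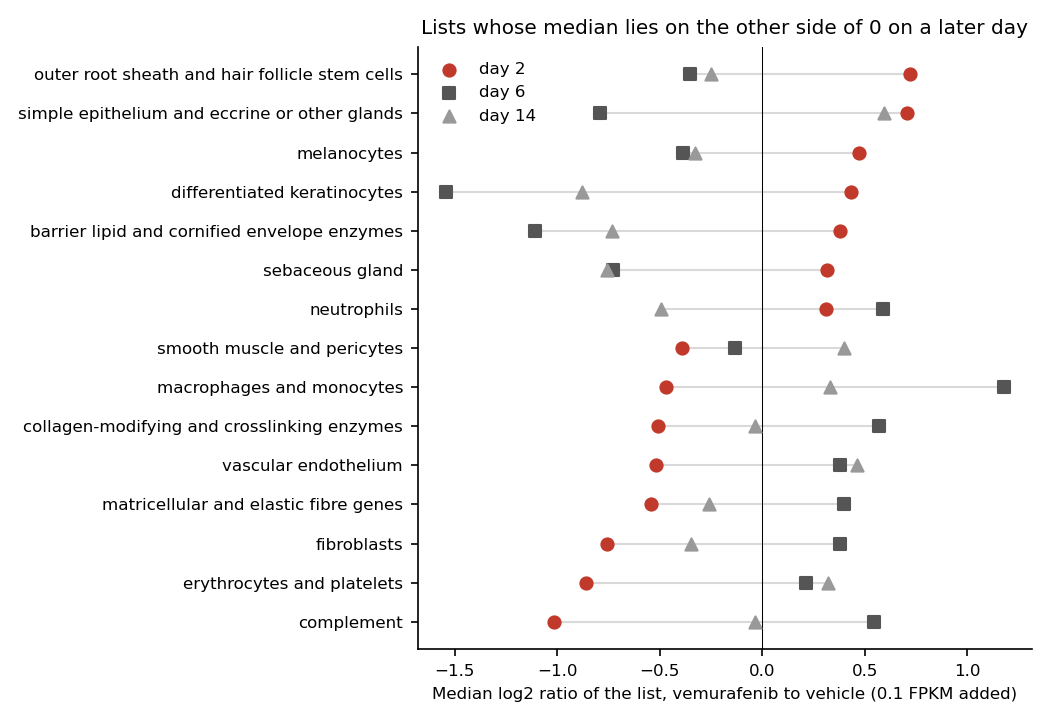
Median log2 ratio of vemurafenib to vehicle (horizontal axis) on days 2, 6 and 14 for the 15 lists whose median was at least 0.3 from 0 on day 2 and at least 0.3 on the other side on a later day. Macrophage and monocyte markers lie at -0.47 on day 2 and 1.18 on day 6, and differentiated keratinocyte genes at 0.43 and -1.55. The day 2 median of the melanocyte list, 0.47, was -0.02 with the filter applied to the day 2 libraries.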

How the data were processed

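RNA of wounded mouse skin was measured in 6 libraries, 1 each for vemurafenib and vehicle on days 2, 6 and 14, and day 2 was compared here. The authors aligned the reads to mm9 and deposited FPKM per gene, normalised between libraries by the Cufflinks tools (the submitters' notes name TopHat, TopHat2, Cuffnorm and Cuffdiff, without versions). The labels give single-end and the methods paired-end reads of poly-A RNA. The table has no unused value columns, and 27 of its rows, whose symbols had turned into dates, were left out.

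Ratios are log2 of vemurafenib over vehicle after adding 0.1 FPKM to both, for the 13392 genes with a mean FPKM of 1 or more over 6 libraries. They understate the change of low genes. With 1 library per group no test was made, counts are of genes 2-fold apart, and a list is called higher or lower where its median lies 0.3 or more from 0. Depth is unknown. The 54 gene lists (25 of cell types, 29 of pathways) and all other choices were made with earlier results of these data known. The text names genes from the 20 highest and 20 lowest ratios among genes averaging 5 FPKM on day 2 (small RNA and histone genes apart), the 15 largest gains and falls in FPKM, defining or extreme list members, and genes the study names.

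Alternatives were pseudocounts, filters, scalings, the mean in place of the median, and, added after seeing the data, medians set to 0 within 20 bins of GC content. Promoter sequences came from RefSeq (GRCm38.p6). Scripts used Python 3.11.15, pandas 2.3.3, numpy 2.4.6 and scipy 1.17.1 and were checked on simulated data. Some members of the lists, though counted, are not reported here by name.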

Additional observations from a re-analysis of the deposited data

Results flagged for a closer look

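Of the 25 gene lists with at least 5 members whose median lay 0.3 or more (log2) from 0 on day 2, 12 lay 0.3 or more on the other side on day 6, 9 did on day 14 and 6 on both days, 15 lists in all. These differences between days were not tested, because each day has 1 library per group. The columns with long values and the relation of ratio to GC content also changed between days, as given above.

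All lists in this paragraph were above 0 on day 2. Differentiated keratinocyte genes had medians of -1.55 on day 6 and -0.88 on day 14, barrier lipid and cornified envelope enzymes of -1.11 and -0.73, and sebaceous gland genes of -0.73 and -0.76. Outer root sheath genes had medians of -0.35 on day 6 and -0.25 on day 14, and melanocyte genes of -0.39 and -0.33. The melanocyte list, counted above for both days, summed on day 2 to only 9.47 FPKM with vemurafenib and 6.495 with vehicle. Its day 2 median of 0.47 was -0.02 when the filter was applied to the day 2 libraries, so its side of 0 on day 2 is uncertain. Simple epithelium genes lay at -0.79 on day 6 but at 0.59 on day 14, and neutrophil markers at 0.59 on day 6 and -0.50 on day 14.

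The remaining lists were below 0 on day 2. Macrophage and monocyte markers had medians of 1.18 on day 6 and 0.33 on day 14, vascular endothelial markers of 0.38 and 0.46, and red cell and platelet genes of 0.21 and 0.32. Fibroblast markers were above 0 on day 6 only, at 0.38, with -0.35 on day 14. The same held for complement genes (0.55 and -0.04), collagen-modifying enzymes (0.57 and -0.04) and matricellular genes (0.40 and -0.26). Smooth muscle and pericyte markers had medians of -0.13 on day 6 and 0.40 on day 14.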

How the results depend on the processing

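No paired analysis was possible because each group has 1 library, and for the same reason no replicate could be left out. The number of genes 2-fold higher with vemurafenib, 191 as reported, was 96 with a pseudocount of 1 FPKM, 421 with no filter, 112 with a minimum mean of 5 FPKM and 321 with both libraries set to the same total. The number 2-fold lower, 437 as reported, was 750 with no filter, 271 with a minimum mean of 5 FPKM, and 288 with the same total. Among the 12093 genes with a GC value it was 332 as they stood and 249 with the median set to 0 within GC bins. Higher genes made up 30.4% of all genes 2-fold apart as reported, 52.7% with the same total and 43.7% (259 higher, 334 lower) with the same total without the 100 most abundant genes. These scalings moved the median ratio of all genes from 0.00 to 0.18 and 0.11, and the lists with it. Among the lists 0.3 or more from 0, melanocyte genes changed sign, to -0.0203 with the filter on day 2 libraries, and no other list did under any alternative. Of the lists with 5 or more members, the 4 lowest on day 2 (resident macrophages, mast cells, complement and MHC class II) and the outer root sheath list kept their sides of 0.3 throughout. Near-0 lists reached 0.3 in size under some alternatives, as cholesterol synthesis did with 0.48 and inflammatory monocytes with -0.43. Without replicates or read numbers, spread between mice and counting error cannot be given for any value, least of all for genes at a few FPKM.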
